A study of Mus musculus with 4 samples.

Results

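The 10 imprinted genes described here are H19, Igf2, Meg3, Rian, Mirg, Peg3, Peg10, Snrpn, Impact and Grb10. They were chosen by name as well-studied imprinted genes, and all 10 were found by their Ensembl identifiers among the 46078 mouse genes counted in single embryonic stem (ES) cells. H19 had no count in any cell, and 5 of the 10 (Meg3, Rian, Peg3, Snrpn and Impact) had a mean of at least 20 normalized counts over all cells kept, which was required before a difference between groups was counted. Snrpn was on in nearly every cell of every group, Impact was on in nearly every cell in 2i and in N2B27 in 12 of 21 ungated and 8 of 20 small cells, and the other genes that were detected were on in a part of the cells only.

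An imprinted gene is transcribed mainly from the chromosome inherited from a single parent, because DNA methylation laid down in either the egg or the sperm marks an imprinting control region on the copy from that parent. Depending on the gene, the methylated copy is the silent or the expressed one. Many imprinted genes lie in clusters under a shared control region, and a cluster can hold genes expressed from the paternal and genes expressed from the maternal copy. In naive ES cells the marks are held by the zinc finger protein ZFP57 with TRIM28, while methylation of the rest of the genome is low, and long culture in 2i is known to put imprints at risk. The counts described here do not separate the parental copies, so they show whether a gene was transcribed in a cell and not from which chromosome.

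Cells were E14 mouse ES cells, taken here to be wild type after the study's methods, since the labels name no line and no genotype. All had been grown in 2i, in which ES cells stay naive because MEK and GSK3 are inhibited, and which the study uses together with leukemia inhibitory factor (LIF). They were sorted by light scatter into a small gate, meant to take cells leaving mitosis or in G1, or left ungated. They were then plated for 6 h on laminin, in 2i again or in N2B27, the same base medium without inhibitors and LIF, in which ES cells leave the naive state, and sorted singly for Smart-seq2, which reads whole transcripts. With 24 cells sorted for each medium and gate there are 4 samples and 1 per group, so cells are not replicates of a condition, no test between groups was possible, and intervals cover counting error only. Intervals of shares treat the cells of a sample as independent draws. Intervals of counts treat reads as independent, which they may not be, because they carry no molecular identifiers.

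After a filter on quality, 12 small and 22 ungated cells were kept in 2i, and 20 small and 21 ungated cells in N2B27. Their totals of counts on genes lay between 1364155 and 4844170. Small cells had fewer genes detected than ungated cells, with medians of 7603 against 9516 in 2i and 7462 against 8200 in N2B27, and more spike-in counts, with medians of 3.47% against 1.28% and 2.45% against 1.14%. All 2i cells lay on a plate and lane of their own, as did all N2B27 cells, so the effects of medium, plate and lane cannot be told apart, and the 48 pairs of indices were used on both plates. The gates lay on different index rows of each plate. By the cyclone classifier, 14 of 22 ungated cells in 2i and 15 of 21 in N2B27 were in G2/M, against 1 of 12 and 3 of 20 small cells. In 1 of the 2i small cells spike-ins took 40.9% of counts and the size factor was 0.133, and another had 15712 genes detected. Both passed the filter, and some ratios that rest on them are given without them as well. Without both, Meg3 and Rian were each on in 4 of 10 small 2i cells, Peg3 in 3 and Grb10 in 2. Shares and ranges given over all genes include both cells. All 8 ES cell markers had a count in every group, and all but Klf4 in N2B27 ungated cells were on in at least 10% of cells. Of the 6 fibroblast markers, 5 or 6 had no count in each group, and of the 7 primitive endoderm markers 3 to 5 had none. Gata4, of the latter, was on in at least 10% of N2B27 small cells, and their summed level reached 533 in an N2B27 ungated cell. Of 7 trophoblast markers, given further below, only 1 or 2 had no count in each group.

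A gene was called on in a cell that held at least 10 normalized counts. It was called uniform in a group where it was on in at least 90% of cells, mosaic where it was on in over 10% and under 90%, and off otherwise. In 2i, 2 of the 10 genes were uniform (Snrpn and Impact), 5 were mosaic (Meg3, Rian, Mirg, Peg3 and Grb10) and 3 were off (H19, Igf2 and Peg10), in small and in ungated cells alike. In N2B27, Snrpn alone was uniform in both gates, and 5 genes were mosaic in small cells and 6 in ungated cells. Mosaic counting was common in these libraries. Taking every gene whose mean in a group reached 20 normalized counts, the mosaic class held 82.8% in 2i small, 58.8% in 2i ungated, 77.2% in N2B27 small and 70.8% in N2B27 ungated cells. The uniform class held 14.5%, 40.8%, 14.0% and 26.3% in the same order. Held to the same minimum, 3 imprinted genes were mosaic and 2 uniform of 5 in either gate in 2i, 3 and 1 of 4 in N2B27 small cells and 4 and 1 of 5 in N2B27 ungated cells. With so few genes in this range these counts are a description, and a mosaic pattern was the more frequent class among all genes in every group.

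Promoters of Snrpn, Peg3 and Meg3 are shown because Snrpn was on in nearly every cell and the other two in a part of the cells, and CG pairs, where mammalian DNA is methylated, are in capitals. Each runs from 250 bases before to 50 after a RefSeq start in GRCm38.p6, 5′ to 3′ on the gene's strand, and Snrpn and Meg3 are shown at the start with most CG pairs.
Snrpn promoter, chr7:60005150-60005449, minus strand: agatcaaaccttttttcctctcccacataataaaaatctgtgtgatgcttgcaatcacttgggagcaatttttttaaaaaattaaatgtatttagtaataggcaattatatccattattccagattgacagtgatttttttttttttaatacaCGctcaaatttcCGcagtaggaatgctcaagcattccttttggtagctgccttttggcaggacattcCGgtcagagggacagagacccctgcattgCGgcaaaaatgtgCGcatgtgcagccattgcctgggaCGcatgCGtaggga
Peg3 promoter, chr7:6730370-6730669, minus strand: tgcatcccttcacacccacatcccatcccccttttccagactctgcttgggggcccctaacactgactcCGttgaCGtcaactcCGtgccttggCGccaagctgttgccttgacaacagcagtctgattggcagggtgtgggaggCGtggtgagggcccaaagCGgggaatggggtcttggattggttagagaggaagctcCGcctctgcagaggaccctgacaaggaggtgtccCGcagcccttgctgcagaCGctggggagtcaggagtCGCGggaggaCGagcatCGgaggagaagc
Meg3 promoter, chr12:109540746-109541045, plus strand: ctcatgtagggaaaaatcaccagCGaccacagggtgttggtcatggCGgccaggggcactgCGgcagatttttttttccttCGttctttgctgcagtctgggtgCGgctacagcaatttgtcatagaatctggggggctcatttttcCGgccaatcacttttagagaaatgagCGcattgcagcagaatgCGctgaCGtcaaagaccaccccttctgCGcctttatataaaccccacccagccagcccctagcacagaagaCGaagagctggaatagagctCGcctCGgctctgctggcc

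The Snrpn promoter held 7 CG pairs, the median over 32851 RefSeq promoters of the same length, and the Peg3 and Meg3 promoters held 13 each, more than 62.1% of all promoters. The Rian promoter held none, the Mirg promoter 10 and the richer Grb10 promoter 45, more than 98.1% of all. The letters TGCCGC, the core of the motif that ZFP57 binds when methylated, were present on either strand in the Snrpn and Meg3 promoters shown and in 1 promoter each of Grb10 and Igf2, and not in the Peg3 promoter. That is 4 of 15 promoters of 7 genes matched, against 11.6% of all promoters, and a match here is a description of letters only. Chromosome 18 was left out when promoters of these genes were looked up, so Impact is not among the 7, and neither are H19 and Peg10. Among the genes matched, CG content did not order them by the share of cells on. Grb10 had the most CG pairs and was on in fewer cells than Snrpn, which had 7.

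Snrpn encodes SmN, a core protein of the spliceosome made in brain and ES cells, and is expressed from the paternal copy of the cluster whose loss causes Prader-Willi syndrome in people. It lies on chromosome 7, 59982495 to 60140219, minus strand, in GRCm38. In 2i ungated cells it ranged from 25.7 to 363 normalized counts with a median of 153, and in N2B27 ungated cells from 49.6 to 542 with a median of 149. Small cells held from 0 to 945 (median 173) in 2i and from 0 to 517 (median 208) in N2B27. The groups overlapped almost wholly, and all 22 and all 21 ungated cells were on, as were 11 of 12 small cells in 2i (91.7%, exact Clopper-Pearson interval 61.5% to 99.8%) and 18 of 20 in N2B27 (90%, 68.3% to 98.8%). Of the 3 cells that were not on, all held no Snrpn count. The small 2i cell with most spike-ins was on by 2 counts alone, and with CPM, scran or spike-in scaling 10 of the 12 small 2i cells were on. The mean was 163 ± 87.6 (SD between cells, n = 22) in 2i ungated and 204 ± 124 (n = 21) in N2B27 ungated cells, a log2 ratio of 0.33. Of the exonic bases of Snrpn, 27.3% are shared with the overlapping genes Gm38393 and Snurf, for which reads can be counted as ambiguous. Snurf, which lies wholly in this stretch, had no count in any cell, so the counts for Snrpn may miss reads from its start.

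Impact encodes a protein that binds GCN1 and so holds back GCN2, the kinase that slows translation when amino acids run short, and it is expressed from the paternal copy. It lies on chromosome 18, 12955852 to 12992950, plus strand. In 2i ungated cells it ranged from 4.64 to 1625 normalized counts, with a median of 344, and in N2B27 ungated cells from 0 to 576, with a median of 45.5. All but 1 of the 2i ungated cells held at least 128, whereas 9 of the 21 N2B27 ungated cells held 3.62 or less. Impact was thus on in 21 of 22 ungated cells in 2i (95.5%, 77.2% to 99.9%) and in 12 of 21 in N2B27 (57.1%, 34% to 78.2%), and these intervals overlap narrowly. The mean was 436 ± 347 (SD between cells) in 2i and 106 ± 146 in N2B27, so that it was 4.09-fold lower in N2B27, a log2 ratio of -2.03. It was also lower among the cells that were on, with medians of 361 in 2i and 139 in N2B27.

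Small cells showed the same order between media. In 2i they held from 0.666 to 10842 normalized counts of Impact, with a median of 373, and in N2B27 from 0 to 2812, with a median of 2.71. It was on in 11 of 12 small cells in 2i (91.7%, 61.5% to 99.8%) and in 8 of 20 in N2B27 (40%, 19.1% to 63.9%), whose intervals overlap narrowly. The value of 10842 came from the cell with most spike-ins, which held 1439 Impact counts. The log2 ratio of N2B27 to 2i was -2.33 in small cells, and without that cell and the cell with most genes it was -0.99. In ungated cells the ratio lay between -3.99 and -1.63 under all 14 alternatives that were run. Those 14 include alternatives that could not change it, such as leaving out small 2i cells.

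Impact was lower in N2B27 within each phase that held ungated cells of both media. Among ungated cells in G2/M it was on in 13 of 14 cells in 2i, with a mean of 311, and in 8 of 15 in N2B27, with a mean of 115. Among ungated cells in S the means were 655 in 8 cells and 86.3 in 4 cells. Small cells had means in 2i and N2B27 of 246 and 130 in S and of 2514 and 669 in G1. That G1 mean in 2i includes the cell at 10842, and only 1 small 2i cell was in G2/M. The 2 index rows of ungated cells gave means of 440 and 431 in 2i and of 73.6 and 141 in N2B27. The ungated N2B27 cells in which Impact was on had a median total of 2502988 counts and 8400 genes, against 3099540 counts and 8115 genes where it was not. Of the 3525 genes that were uniform in 2i ungated cells, 193 (5.48%) were on in no more than 57.1% of N2B27 ungated cells, as Impact was, and 2186 (62%) were still uniform. In N2B27 small cells, 322 of these genes (9.13%) were on in no more cells than Impact.

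**Figure D1:**
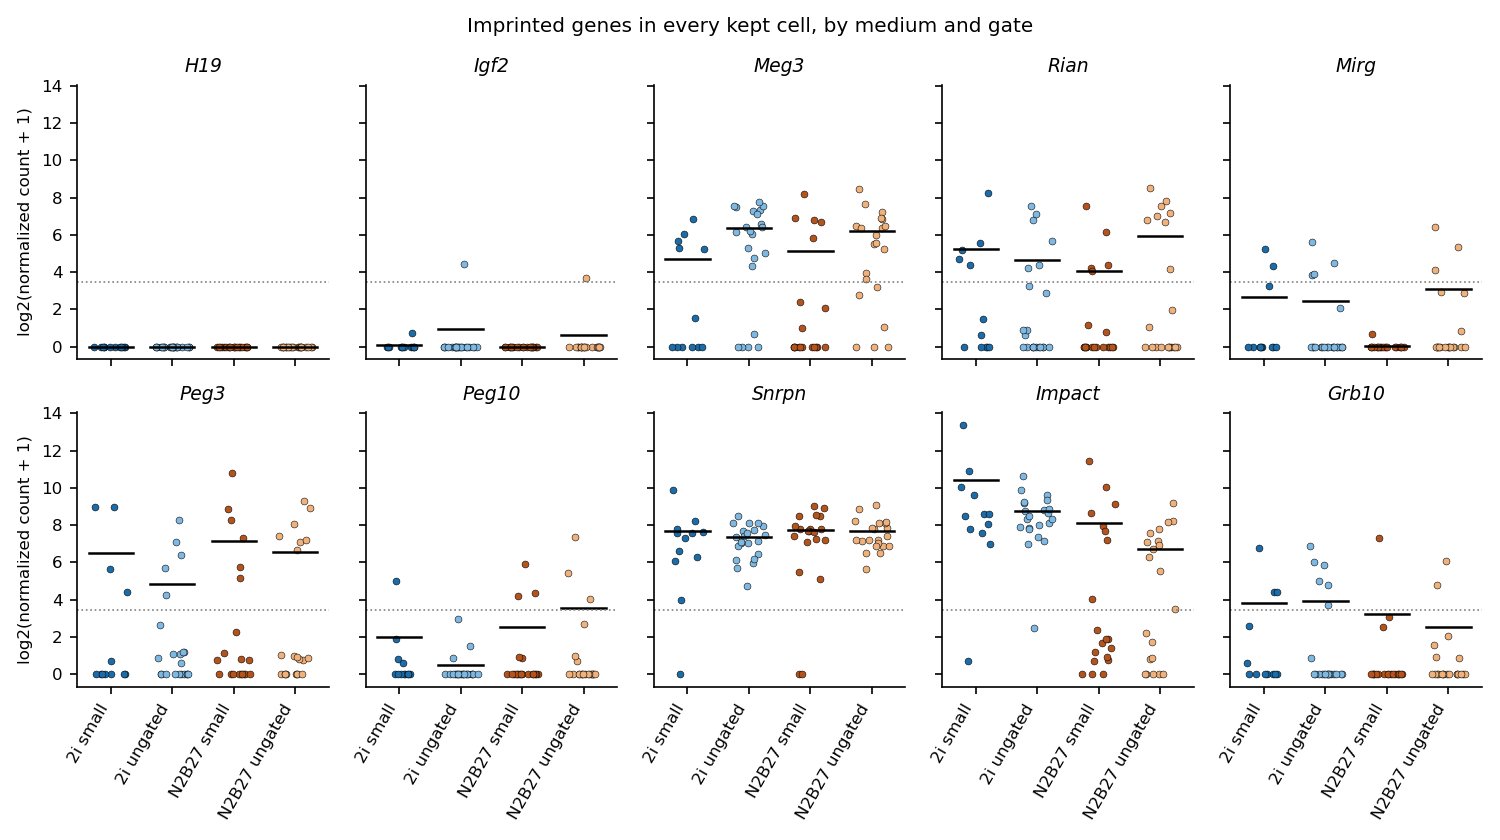
Every kept cell is a point, at its normalized count on a scale of log2(count + 1), with 1 panel per gene and 1 column per group of medium and gate. Black bars are group means on the same scale and the dotted line is the threshold of 10 normalized counts. Snrpn stayed above the line in all but 3 of 75 cells, Impact split into cells above and near 0 in N2B27, and H19 was at 0 throughout.

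Meg3, Rian and Mirg are non-coding RNAs expressed from the maternal copy of the Dlk1-Dio3 cluster on chromosome 12, in this order along the plus strand. Meg3 covers 109541001 to 109571726, Rian, the host of many small nucleolar RNAs, 109603940 to 109661716, and Mirg, the host of many microRNAs, 109729764 to 109749460. Silencing of this cluster is a known fault of some cultured pluripotent lines, and Meg3 was detected in cells of all 4 groups here.

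Meg3 ranged from 0 to 216 normalized counts in 2i ungated cells (median 71.5), and in N2B27 from 0 to 357 (median 46.9). Of ungated cells, 17 of 22 in 2i (77.3%, 54.6% to 92.2%) and 15 of 21 in N2B27 (71.4%, 47.8% to 88.7%) had Meg3 on. The media overlapped almost wholly, and the means of 82.8 ± 72.7 and 72.2 ± 86.1 gave a log2 ratio of -0.19. That value rested on the filter on cells, since without it the ratio was -3.47 and with fixed limits on counts and genes -3.55, both past 2-fold. With fixed limits Meg3 was on in 18 of 23 ungated cells in 2i and 16 of 24 in N2B27, so the shares moved little. The 21 cells left out by the filter, which came from all 4 groups, together held 438 Meg3 counts. The 22 ungated 2i cells kept held 2076. Cells added by the other filters had failed the quality filter, and their part in the larger ratios was not tested. In small cells Meg3 ranged from 0 to 113 in 2i (median 0.94) and from 0 to 293 in N2B27 (median 0). It was on in 5 of 12 small cells in 2i (41.7%, 15.2% to 72.3%) and in 5 of 20 in N2B27 (25%, 8.66% to 49.1%). Fewer small than ungated cells were therefore on in both media, although the intervals overlap in both, narrowly in N2B27. Thinning every cell to 1300000 counts left 5 of 12 and 17 of 22 on in 2i, and 5 of 20 and 13 of 21 in N2B27. Small 2i cells in which Meg3 was not on had fewer genes (median 5775) than those in which it was on (8663) and more spike-ins (11.1% against 1.21%), and the part of RNA quality in this difference was not tested.

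Part of the sequence of Meg3 is repeated on the X chromosome. The gene Gm27000, at 88759471 to 88760312 on the minus strand, matches the first 842 bases of a Meg3 transcript with a single difference, G162A, in which the Meg3 base stands first and positions count from 1 at the transcript's start. The stretch of 41 bases around it is shown, in GENCODE M21 transcripts, with the base that differs in capitals.
Meg3, bases 142 to 182: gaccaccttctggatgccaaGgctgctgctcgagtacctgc
Gm27000, bases 142 to 182: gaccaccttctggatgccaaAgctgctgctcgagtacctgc

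Reads from this stretch can be counted on either gene. Gm27000 was on in 31 cells, and Meg3 was on in all 31 of them. Counts on Gm27000 made up 16.3% of the sum of both genes in 2i small, 25.2% in 2i ungated, 24.1% in N2B27 small and 22.2% in N2B27 ungated cells. Adding them to Meg3 left the number of cells on the same in every group and gave a log2 ratio between media of -0.25 in ungated cells.

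Rian ranged from 0 to 186 in 2i ungated cells (median 0.26), and in N2B27 from 0 to 363 (median 0). Rian was on in 6 of 22 (27.3%, 10.7% to 50.2%) and in 8 of 21 (38.1%, 18.1% to 61.6%), and the cells that were on held more in N2B27, with medians of 137 against 80.6. In small cells it ranged from 0 to 309 in 2i (median 1.18) and from 0 to 190 in N2B27 (median 0), and 5 cells were on in each. A single cell gave 73.6% of all Rian counts in 2i small cells. The means were 36.5 ± 87.4 in 2i small, 24.6 ± 51.8 in 2i ungated, 15.7 ± 44 in N2B27 small and 60.9 ± 99.7 in N2B27 ungated cells.

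Mirg was low in all groups. Its highest cell held 36.6 normalized counts in 2i small, 48.6 in 2i ungated, 0.607 in N2B27 small and 86.1 in N2B27 ungated cells, and its median was 0 in each. It was on in 2, 4, 0 and 3 cells in the same order. With 1 count over 20 N2B27 small cells, 0 cells on allow a share of up to 16.8%.

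How far the 3 RNAs were on in the same cells differed between groups. In 2i small cells Meg3 and Rian were on in the same 5 cells, with 0 cells holding only 1 of the pair on, whereas 11 of 22 ungated cells in 2i had Meg3 on without Rian. Over all 75 cells, Meg3 and Rian were both on in 19, Meg3 without Rian in 23, Rian without Meg3 in 5 and neither in 28. All 9 cells with Mirg on also had Meg3 on, and 4 of these had Rian off. In 2i every cell with Rian on had Meg3 on, 5 of 5 small and 6 of 6 ungated cells, whereas in N2B27 5 of 13 cells with Rian on did not. The 3 ungated cells among these 5 held Meg3 at 5.73, 8.13 and 0 normalized counts, and the 2 small cells held none. The correlation of ranks within groups, pooled over 75 cells, was 0.29 between Meg3 and Rian, the highest of any pair among the 7 members on in at least 10% of cells. In counts as sparse as these a correlation of this size is a description only. Of the protein-coding genes of the cluster, which are expressed from the paternal copy, Dlk1 was on in 0, 0, 1 and 1 cells, Rtl1 in 2, 1, 1 and 1 cells and Dio3 in 0, 2, 0 and 2 cells in the order of groups above.

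**Figure D2:**
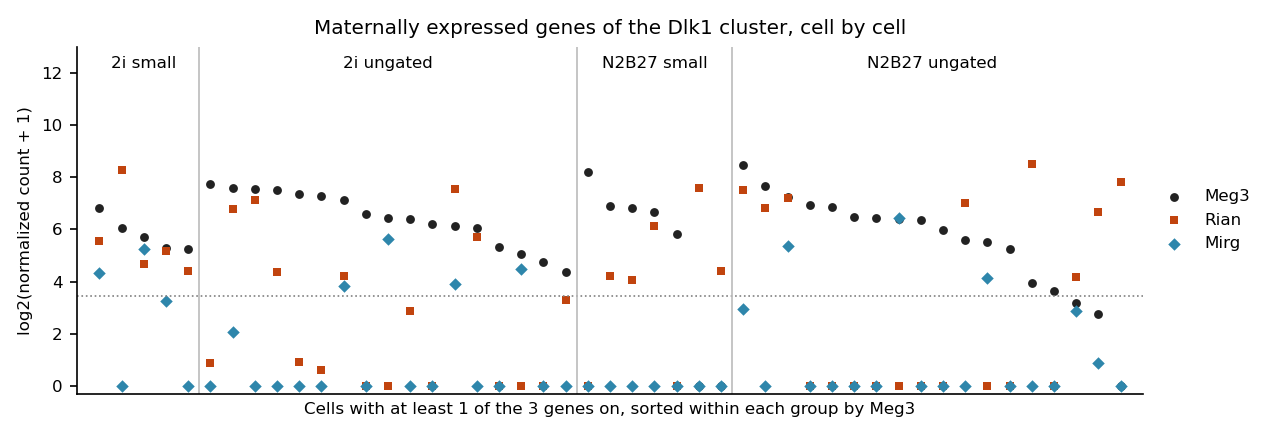
Normalized counts of Meg3 (circles), Rian (squares) and Mirg (diamonds), on a scale of log2(count + 1), in the 47 kept cells with at least 1 of the 3 on, sorted within each group by Meg3. The dotted line is the threshold of 10 normalized counts, points at 0 overlie each other, and 5 of the cells have Rian but not Meg3 above the line, all of them in N2B27.

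Peg3 encodes a zinc finger protein expressed from the paternal copy and lies on chromosome 7, 6703892 to 6730431, minus strand. Its highest cell was above those of Meg3 and Rian, the other genes mosaic in all 4 groups, in every group. It ranged from 0 to 499 in 2i small (median 0), from 0 to 312 in 2i ungated (median 0.671), and in N2B27 from 0 to 1810 in small (median 0.709) and from 0 to 627 in ungated cells (median 0.819). Most cells held almost nothing, and the few that were on held much. In N2B27 ungated cells no value lay between 1.01 and 99.7, so that 7 of 21 cells (33.3%, 14.6% to 57%) stood apart from the rest. In 2i ungated cells 5 of 22 were on (22.7%, 7.82% to 45.4%), in 2i small cells 4 of 12 and in N2B27 small cells 6 of 20. The means of 27.9 ± 72.1 in 2i ungated and 91.7 ± 172 in N2B27 ungated cells gave a log2 ratio of 1.68, between 1.01 and 2.17 under all 14 alternatives. Of these, leaving out small 2i cells and adding Gm27000 to Meg3 could not change it. The shares of cells on overlapped widely, and the median of the cells on was 84.3 in 2i and 169 in N2B27.

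Peg10, a gene derived from a retrotransposon that the placenta needs, is expressed from the paternal copy and lies on chromosome 6, 4747306 to 4760517, plus strand. It was on in 1 of 12 and 0 of 22 cells in 2i, and in 3 of 20 and 3 of 21 cells in N2B27. Its highest cells held 31.7, 6.68, 59.1 and 165 normalized counts in that order. These were 9 counts in all 2i ungated cells together (exact Poisson interval 4.12 to 17.1) and 272 in N2B27 ungated cells, of which 73.9% came from 1 cell.

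Grb10 encodes an adaptor that dampens signalling from the insulin receptor and is expressed from the maternal copy in most tissues. It lies on chromosome 11, 11930508 to 12038683, minus strand. It was on in 3 of 12 small (25%, 5.49% to 57.2%) and 6 of 22 ungated cells in 2i (27.3%, 10.7% to 50.2%), and in 1 of 20 small (5%, 0.127% to 24.9%) and 2 of 21 ungated cells in N2B27 (9.52%, 1.17% to 30.4%). Its highest cells held 109, 116, 159 and 65.5 normalized counts, so the ranges overlapped, and the intervals of the shares overlap between media in both gates. The mean stayed below 20 in every group, and no difference was counted for Grb10.

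H19 and Igf2 share a control region and enhancers on chromosome 7. H19, a non-coding RNA expressed from the maternal copy at 142575529 to 142578143, had 0 counts in all 75 cells, which allows a share of cells on of up to 15.4% in 2i ungated and 26.5% in 2i small cells. Igf2, which encodes a growth factor of the embryo and is expressed from the paternal copy at 142650766 to 142666816, was on in 2 cells. These were 1 of 22 ungated cells in 2i, with 25 counts, and 1 of 21 in N2B27, with 12 counts. Otherwise a single Igf2 count was found, in a 2i small cell.

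**Figure D3:**
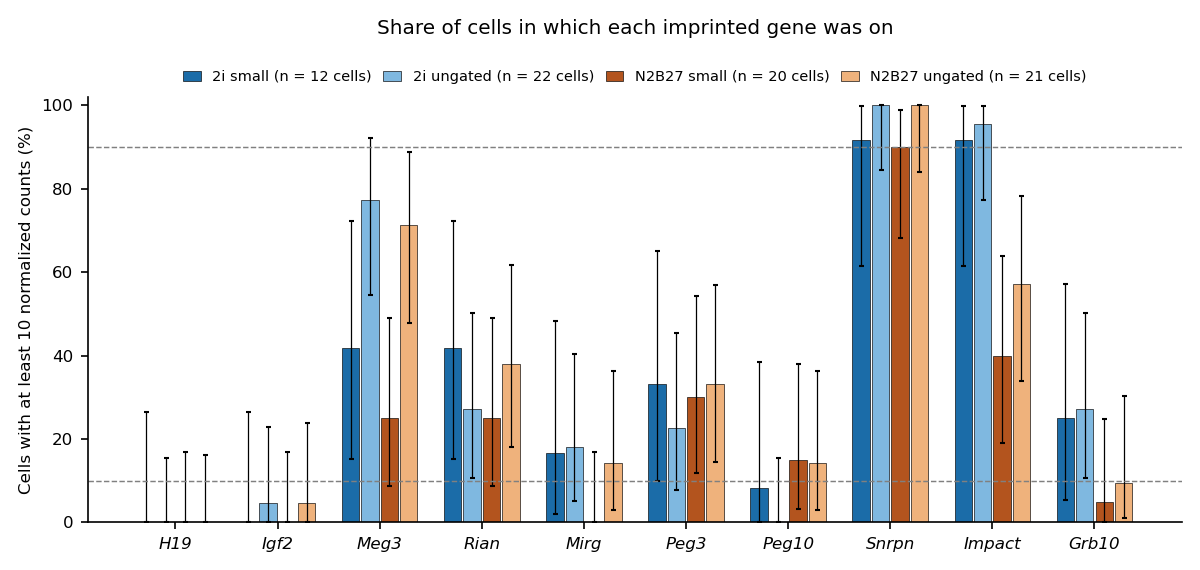
Bars give the share of kept cells in which each gene held at least 10 normalized counts, in percent, for the 4 groups, with exact Clopper-Pearson 95% intervals that cover counting error only. Dashed lines mark 10% and 90%. Snrpn lies at or above 90% in each group, Impact does so in 2i and falls to 40% and 57.1% in N2B27, and Meg3 is lower in small than in ungated cells.

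Per kilobase of exon, the order of mean levels in 2i ungated cells was Impact with 85 normalized counts, Snrpn with 75.3, Meg3 with 4.58, Peg3 with 2.1, Grb10 with 1.54, Rian with 1.35 and Mirg with 0.627. Impact and Snrpn differed by less than their spread between cells, with coefficients of variation of 0.797 and 0.538, and so did Peg3, Grb10 and Rian, with coefficients of 2.58, 2.11 and 2.1. In N2B27 ungated cells Snrpn came first with 94.7 per kilobase, then Impact with 20.6, Peg3 with 6.88, Meg3 with 3.99 and Rian with 3.34. The number of the 10 genes that were on in a cell ranged from 1 to 7 in 2i small (median 2), from 2 to 5 in 2i ungated (median 4), and in N2B27 from 0 to 5 in small (median 2) and from 2 to 6 in ungated cells (median 3).

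**Figure D4:**
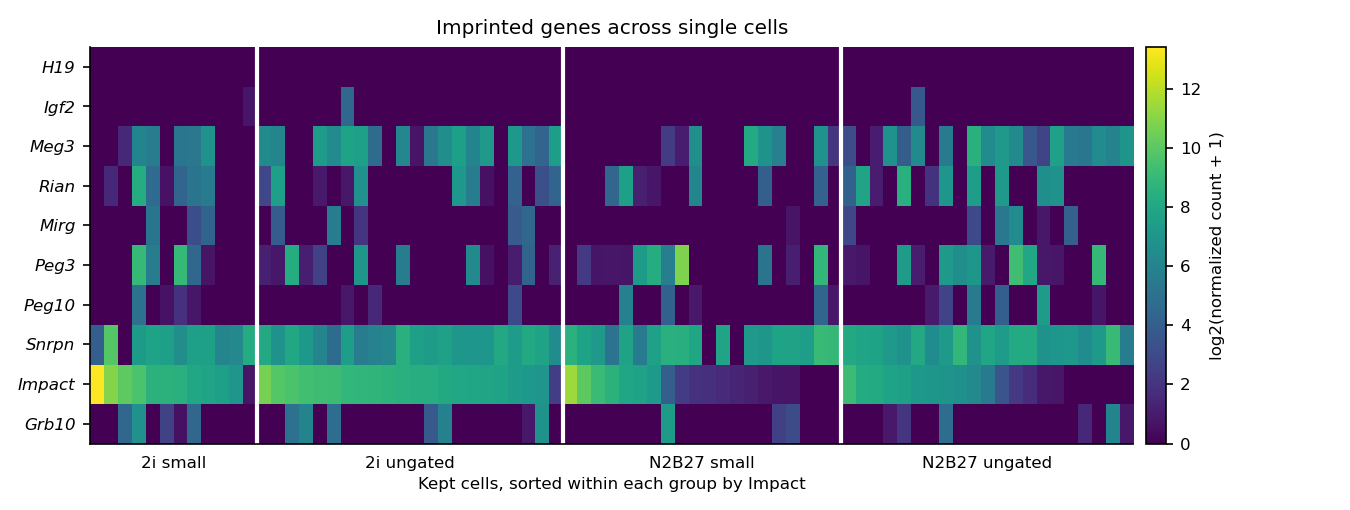
Each column is a kept cell and each row a gene, coloured by log2(normalized count + 1), with cells sorted within each group by Impact. Snrpn forms a nearly unbroken band, Impact breaks off within both N2B27 groups, and the other genes that were detected are on in a part of the cells only.

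Differences between groups were counted as past 2-fold when the log2 ratio of mean normalized counts was at least 1 in size. For N2B27 against 2i in ungated cells, Rian (1.27) and Peg3 (1.68) were past 2-fold higher and Impact (-2.03) past 2-fold lower, while Meg3 (-0.19) and Snrpn (0.33) lay between. Meg3 was past 2-fold lower with either other filter on cells, as given above. Of all 8757 genes that met the same mean, 7.61% were at least 2-fold higher and 9.89% at least 2-fold lower, with a median of -0.03. The median over the 5 imprinted genes was 0.33. Impact lay below the range that held the middle 90% of all genes, -1.45 to 1.22, and Peg3 and Rian lay above it.

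In small cells, Rian (-1.17) and Impact (-2.33) were past 2-fold lower in N2B27 and none was past 2-fold higher. Over all genes 23.3% were at least 2-fold higher and 18.4% at least 2-fold lower, more than in ungated cells, and the middle 90% of genes lay between -2.51 and 2.96, a range that held all 5 imprinted genes. Rian thus moved in opposite directions in the 2 gates, and among cells in S or G2/M alone its ratio in small cells was 0.31, the reverse of its sign over all small cells.

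For small against ungated cells in N2B27, Impact (1.36) was past 2-fold higher in small cells and Meg3 (-1.05) and Rian (-1.89) past 2-fold lower, beside 11.9% and 17.2% of all genes in these directions. The higher mean of Impact rested on a few cells, since its median was lower in small cells (2.71 against 45.5) and 46% of its counts came from 1 cell. Its sign was reversed to -0.33 with means of log2 values, to -0.37 with spike-in size factors and to -0.08 among cells in S or G2/M. Rian kept its side of the threshold under all 14 alternatives, between -2.63 and -1.21, and Meg3 under 10 of 14, between -2.76 and -0.61. Leaving out small 2i cells could change neither, and adding Gm27000 to Meg3 could not change Rian.

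In 2i, Peg3 (1.64) and Impact (1.66) were past 2-fold higher in small cells and Meg3 (-1.66) past 2-fold lower, beside 15.4% and 28.8% of all genes, whose median was -0.40. Among cells in S or G2/M the ratios of Peg3 and Impact were reversed, at -1.18 and -0.84, and Meg3 was reversed, at 0.16, with spike-in size factors. Without the 2 small cells that stood apart, Impact was at 0.32, Peg3 was at 1.87 and Meg3 at -1.59. Medians of Impact were close, at 373 in small and 344 in ungated cells. Small and ungated cells also differed in phase, in genes detected and in spike-in share, and the part of these in the differences was not tested.

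**Figure D5:**
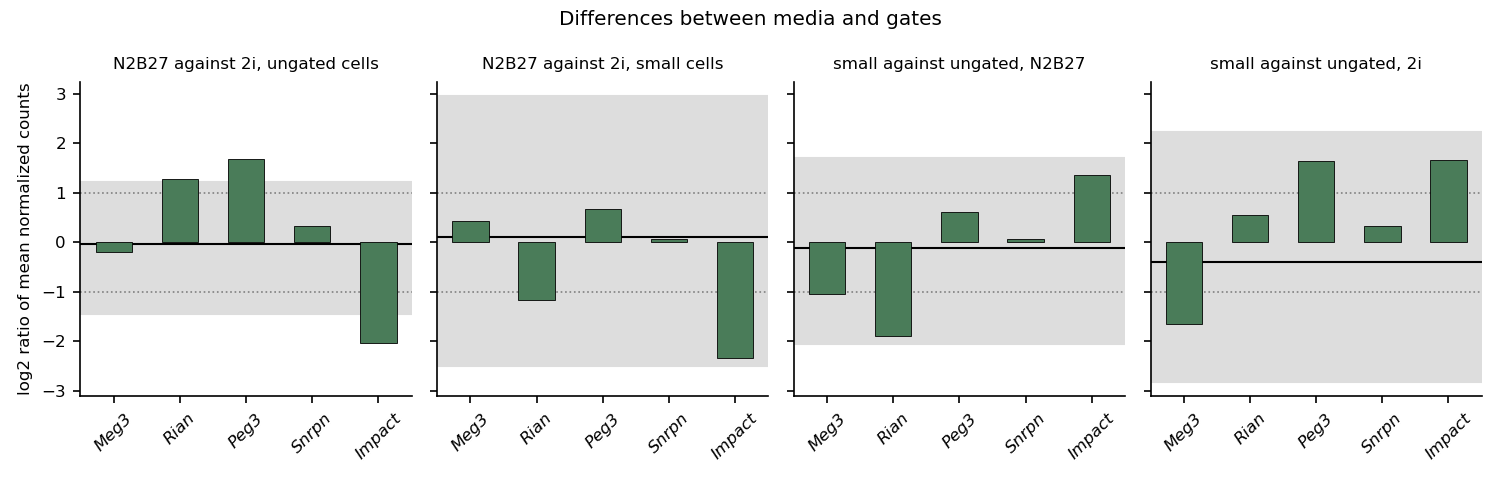
Bars are log2 ratios of mean normalized counts, first group named over the second, for the 5 imprinted genes with a mean of at least 20, in 4 comparisons. The grey band holds the middle 90% of 8757 genes, the black line is their median and dotted lines mark a 2-fold difference. Impact is below the band for ungated cells between media, and Peg3 and Rian are above it there.

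A list of 50 other imprinted genes gives the setting. For N2B27 against 2i in ungated cells, 21 of the 50 had a mean of at least 20 over all cells, and 4 of these were past 2-fold higher, 4 past 2-fold lower and 13 between, with a median over the 21 of 0.22, beside 7.61% and 9.89% of all genes in these directions. Phlda2, a brake on placental growth, had means of 47.2 in 2i and 243 in N2B27 (log2 ratio 2.34), and was on in 13 of 22 and 15 of 21 cells. Slc38a4, an amino acid transporter, was at 131 and 376 (1.51), and Ppp1r9a, a protein that binds actin, at 15.7 and 41.5 (1.35). Ascl2, the fourth, is named outside the rule, with a ratio of 1.47 from 2 of 21 cells on. Of 7 trophoblast markers, Elf5 had no count in any group and Cdx2 none in N2B27 ungated cells. In ungated cells 4 were on in at least 10% in each medium. These were Cdx2, Gata3, Tfap2c and Krt8 in 2i, and Gata3, Tfap2c, Krt8 and Krt18 in N2B27. The summed level of the 7 per ungated cell ranged from 0 to 606 in 2i and from 0 to 1540 in N2B27. The part of these markers in the ratios above was not tested. On the lower side, Igf2r, the receptor that clears IGF2, was at 27.9 in 2i and 4.28 in N2B27 (-2.45) and was on in 10 of 22 and 3 of 21 cells. Cdkn1c, an inhibitor of the cell cycle, was at 80 and 21.9 (-1.82), and Ube3a, a ubiquitin ligase, at 76.8 and 37.5 (-1.02). Inpp5f, also named outside the rule, was at 18.4 and 5.02 (-1.69).

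Between gates in N2B27, 3 of the 21 were past 2-fold higher in small cells and 3 past 2-fold lower, beside 11.9% and 17.2% of all genes. Kcnq1ot1, the non-coding RNA that silences its cluster on the paternal copy, had means of 55.7 in small and 11.3 in ungated cells (2.20), and Ube3a 149 and 37.5 (1.96), while Phlda2 (0.42) lay between. Ppp1r9a had means of 15.2 and 41.5 (-1.39), and Mest (-0.98) and Mcts2 (-0.64) lay between. In small cells 7 of the 21 were past 2-fold higher in N2B27 and 5 lower, beside 23.3% and 18.4% of all genes. In 2i, 7 were higher and 6 lower in small than in ungated cells, beside 15.4% and 28.8%. By class, 4 of the 50 were uniform in 2i ungated cells (Cd81, Tssc4, Commd1 and Gab1), 19 were mosaic and 27 off. Among the 17 with a mean of at least 20 in this group 4 were uniform and 13 mosaic, beside 40.8% and 58.8% of all genes with that mean. Cd81 and Commd1 stayed uniform in N2B27 ungated cells, and none of the 50 was uniform in N2B27 small cells. Among the 21 with that mean in N2B27 ungated cells 2 were uniform, beside 26.3% of all genes. Among the 19 with that mean in N2B27 small cells none was uniform, beside 14.0% of all genes. Tssc4 was on in 16 of 21 and Gab1 in 18 of 21 N2B27 ungated cells, so neither fell as low as Impact. Some genes mosaic in 2i ungated cells were on in fewer N2B27 ungated cells than Impact. H13 went from 19 of 22 to 10 of 21 cells on, and Ube3a from 16 to 5. Cdkn1c went from 14 to 3 and Sfmbt2 from 13 to 4. Others did not fall, such as Phlda2 (13 to 15) and Slc38a4 (14 to 15).

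Of 18 genes that set, keep or remove imprints, 16 had a mean of at least 20, and for N2B27 against 2i in ungated cells 1 was past 2-fold higher and 5 past 2-fold lower, with a median of 0.06, beside 7.61% and 9.89% of all genes in these directions. Zfp57 was within 2-fold, with means of 562 in 2i and 584 in N2B27 and all 22 and 20 of 21 cells on, as did its partner Trim28, with 522 and 542. Dnmt1, the enzyme that copies methylation to the new strand, was at 125 in 2i and 45.3 in N2B27 (-1.44), and Uhrf1, which brings it to DNA, at 706 and 317 (-1.15). Dppa3, which guards the maternal genome from demethylation in the zygote, was at 181 and 29.4 (-2.58), with 5 cells on in each medium. Tet2, which oxidizes methylated cytosine, was at 103 and 47 (-1.12), and Prdm14, a naive regulator that holds methylation low, at 76.2 and 36.8 (-1.03). Ehmt2, a histone H3 methyltransferase, was at 22.9 and 64.6 (1.46). In small cells Dnmt1 was past 2-fold higher in N2B27 and Ehmt2 past 2-fold lower, the opposite of their direction in ungated cells.

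The genes most like each member were found from ranks of normalized counts taken within groups and pooled over 75 cells, among 10437 genes on in at least 10% of cells. For Meg3 the first was its copy Gm27000, with a correlation of 0.78, followed by Cfap77 (0.49) and Gm37899 (0.47), which also lies on chromosome 12. For Impact they were Susd6 (0.45), Ttc23 (0.43) and Gm7887 (0.43), and for Snrpn Keap1 (0.44), Puf60 (0.40) and Hax1 (0.38). For Peg3 they were St3gal5 (0.48), Kif13b (0.44) and Nr5a2 (0.42), for Rian Slc9b1 (0.52), Srek1ip1 (0.50) and Rida (0.50), for Grb10 Ccdc107 (0.45), Apool (0.44) and Atr (0.44), and for Mirg Senp8 (0.42), Mks1 (0.42) and Gm27204 (0.41). No other member was among them. These are the highest of 10437 values over cells that share a library and its depth, and they are given as descriptions.

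Among the 21 cells left out by the filter, Impact had counts in 18, Snrpn in 15, Peg3 and Rian in 7 each and Meg3 in 5, and H19 had none. With these cells kept Impact was on in 23 of 24 ungated cells in 2i and 13 of 24 in N2B27.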

How the data were processed

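Single-cell RNA sequencing by Smart-seq2 was analysed for 4 samples of 24 cells. Per the submitters' notes the reads were trimmed with Trim Galore 0.4.4, aligned to GRCm38/mm10 with GSNAP and counted on Ensembl genes with HTSeq. Its settings for strand and overlaps are not given in the sources used here. The authors deposited raw counts per gene and cell, 1 table per medium, as whole numbers without normalization. Over all cells 27.6% of counts were on no gene, of which 3.85% of all counts were on ERCC spike-ins and 6.77% ambiguous, and these stayed out of totals. Columns were assigned to samples through the deposited list of runs, with 0 columns left over. Names and positions came from GENCODE M21, of the same build.

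Cells over 3 median absolute deviations from their plate's median (low total, few genes, high mitochondrial share) were left out with scater 1.30.1. No doublet caller was run on singly sorted cells. Counts were divided by DESeq2 1.42.0 size factors over the 75 kept cells, estimated on 1227 genes that no kept cell lacked, and phases were called with cyclone in scran 1.30.0. A log2 ratio compares mean normalized counts with a pseudocount of 1 on each mean. Intervals are exact, at 95%. With 1 sample per group no p-value was computed, and the study's DESeq2 test was not repeated. Copies were sought with blastn 2.17.0 at 98% identity over at least 150 bases. The remaining steps used R 4.3.3, Python 3.11.15, numpy 2.4.6, pandas 2.3.3, scipy 1.17.1 and matplotlib 3.10.9, and were tested on simulated data.

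The members, the lists and the tests were chosen with earlier results of these data known. All members are named. Of the other imprinted genes, the 3 per direction with the largest ratio between media in ungated cells and between gates in N2B27 are named, if the higher group had a mean of at least 20 and at least 20% of cells on. Also named are imprint regulators past 2-fold between media in ungated cells and the 3 genes most like each member on in at least 10% of cells. Zfp57, Trim28, Dlk1, Rtl1, Dio3, H13, Sfmbt2 and the uniform genes of the list are named outside this rule. Alternatives covered the normalization, the filter on cells, the phase, the summary over cells, the pseudocount, the threshold for on, the class limits and depth. Adding Gm27000 to Meg3 was chosen after seeing the data.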

Additional observations from a re-analysis of the deposited data

Results flagged for a closer look

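Rian, the maternal non-coding RNA of the Dlk1-Dio3 cluster, was set apart because its difference between media had opposite directions in the 2 gates. The log2 ratio of N2B27 to 2i was 1.27 in ungated cells, with 8 of 21 against 6 of 22 cells on, and -1.17 in small cells, with 5 of 20 against 5 of 12 cells on. Whether the gates differ in this was not tested, as each group is 1 sample. A single cell held 73.6% of the Rian counts of 2i small cells, and with each group's highest cell left out the ratio in small cells was -0.75 and that in ungated cells 1.38. Over the 14 alternatives the ratio in small cells lay between -7.23, without a filter on cells, and 0.31, among cells in S or G2/M, which reverses its sign, and 11 of 14 kept it past 2-fold lower. That in ungated cells lay between 0.78 and 1.85. Adding Gm27000 to Meg3 could change neither ratio, and leaving out small 2i cells could not change that in ungated cells.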

How the results depend on the processing

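No paired analysis was possible because each group is 1 sample. The totals below include recomputed values that could not differ. Leaving out the 2 small 2i cells that stood apart changes nothing in the other groups, and adding Gm27000 changes only Meg3. Of 160 recomputed counts of genes, 143 stayed within 1.5 times the count reported. Genes past 2-fold between media in small cells numbered 2, and 4 with spike-in size factors, 1 with fixed limits on cells, 1 without the 2 small 2i cells that stood apart and 1 with each gene's highest cell left out. Between gates in 2i they numbered 3, and 5 with DESeq2's poscounts size factors and 1 with means of log2 values. In 2i small cells 2 genes were uniform, and 1 with CPM, scran or spike-in size factors, without a filter on cells, among S and G2/M cells, at a threshold of 50, or after thinning, while 3 were mosaic at a threshold of 50. In N2B27 small cells 1 gene was uniform, and 0 among S and G2/M cells or at a threshold of 50, and 3 were mosaic after thinning. Of 280 recomputed ratios of single genes, 115 stayed within counting error of the value reported, 158 moved beyond it and 7 of differences past 2-fold reversed. Among S and G2/M cells these were Rian between media in small cells (0.31), Impact between gates in N2B27 (-0.08) and in 2i (-0.84), and Peg3 between gates in 2i (-1.18). With spike-in size factors they were Impact between gates in N2B27 (-0.37) and Meg3 between gates in 2i (0.16), and with means of log2 values Impact between gates in N2B27 (-0.33). The cause was not tested. Spike-in size factors moved the median of all genes from 0.11 to -1.55 between media in small cells, from -0.12 to -0.82 between gates in N2B27 and from -0.40 to 0.77 in 2i, and poscounts moved it from -0.03 to 0.41 between media in ungated cells. Without a filter on cells Meg3 in ungated cells went from -0.19 to -3.47, and with fixed limits to -3.55.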
